A study of Mus musculus with 5 samples.

Results

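The genes described here are 8 CXC chemokines, Cxcl1, Cxcl2, Cxcl5, Cxcl9, Cxcl10, Cxcl12, Cxcl14 and Cxcl16, named by symbol and taken from the 31055 genes counted in 5 scRNAseq libraries of mouse skeletal muscle. They were chosen by name and not by a measured value. Each library held GFP+ cells that were FACS-sorted from Prx1Cre;mTmG mice on a C57Bl/6 background, in which Cre driven by the Prx1 promoter turns on membrane GFP in limb mesenchymal cells and their descendants. The cells came from muscle around the tibia of uninjured mice (d0), from mice 3 or 5 days after a non-stabilized fracture (d3 and d5 post-fracture), and from mice 3 or 5 days after polytrauma, in which the muscle beside the fracture was injured as well (d3 and d5 post-polytrauma). Periosteum and bone marrow were left out of the dissection, and 2 mice were pooled in each library.

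Chemokines are small secreted proteins that direct the movement of cells carrying their receptors. Cxcl1, Cxcl2 and Cxcl5 carry the ELR motif and draw neutrophils through the receptor Cxcr2. Cxcl9 and Cxcl10 are induced by interferons and act on Cxcr3 of T cells and NK cells, while Cxcl12 retains hematopoietic and other cells through Cxcr4 and is a marker of mesenchymal niche cells. Cxcl16 is made as a membrane protein that can be shed and binds Cxcr6, and the receptor of Cxcl14 is less settled.

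In the mouse genome (GRCm38, GENCODE M21 annotation) the ELR genes lie on chromosome 5, within 147 kb and all on the plus strand. Cxcl5 lies at chr5:90759360-90761624, Cxcl1 at chr5:90891241-90893115 and Cxcl2 at chr5:90903871-90905938, with the related Cxcl3 between Cxcl5 and Cxcl1 at chr5:90786103-90789600. Further along the same chromosome, on the minus strand, lie Cxcl9 at chr5:92321347-92328079 and Cxcl10 at chr5:92346638-92348889. The other members are scattered, with Cxcl12 at chr6:117168535-117181367 on the plus strand, Cxcl14 at chr13:56288643-56296551 on the minus strand and Cxcl16 at chr11:70453983-70459984 on the minus strand. All 8 are annotated as protein coding.

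The RefSeq promoter table (GRCm38.p6) held 6 of the 8 members. The 250 bases before the RefSeq start site are shown for the ELR genes Cxcl1 and Cxcl2, which were both called lower from d3 to d5 in each injury, and for the interferon-induced Cxcl10. Distances below are counted from RefSeq start sites, which can differ from the GENCODE gene starts above. The ends of the Cxcl1 and Cxcl2 windows thus lie inside the GENCODE gene positions, further inside for Cxcl2. Capitals mark matches, on either strand, to the letters of an NF-kB site (GGG, any pair of bases, then TTTCC) or of the interferon-stimulated response element (GAAA, any pair of bases, then GAAA). Each sequence reads 5′ to 3′ along the gene's own strand.
Cxcl1, chr5:90890995-90891244, plus strand: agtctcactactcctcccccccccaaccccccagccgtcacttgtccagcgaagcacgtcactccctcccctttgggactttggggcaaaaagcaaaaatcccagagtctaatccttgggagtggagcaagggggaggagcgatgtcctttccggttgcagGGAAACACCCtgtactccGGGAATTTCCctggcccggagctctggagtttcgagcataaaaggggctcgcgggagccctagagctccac
Cxcl2, chr5:90903649-90903898, plus strand: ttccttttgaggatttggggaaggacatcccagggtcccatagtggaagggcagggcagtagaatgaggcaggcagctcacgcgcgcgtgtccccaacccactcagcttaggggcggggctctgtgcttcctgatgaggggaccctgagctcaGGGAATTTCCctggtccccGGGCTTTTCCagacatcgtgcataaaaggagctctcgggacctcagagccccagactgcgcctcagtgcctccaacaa
Cxcl10, chr5:92348890-92349139, minus strand: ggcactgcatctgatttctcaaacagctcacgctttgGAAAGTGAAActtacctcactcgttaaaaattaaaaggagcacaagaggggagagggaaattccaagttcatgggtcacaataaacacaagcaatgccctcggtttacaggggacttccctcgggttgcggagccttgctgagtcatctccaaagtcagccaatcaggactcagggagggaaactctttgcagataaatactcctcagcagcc
Cxcl1 and Cxcl2 each held 2 matches to the NF-kB letters, and both held the same 10 letters, GGGAATTTCC, which began 71 bases before the Cxcl1 start and 97 bases before the Cxcl2 start. Cxcl3 held the same 10 letters 73 bases before its start. Of 32841 promoter windows of this length, 1.41% held at least 1 match to these letters. The interferon letters were found 213 bases before the Cxcl10 start and 172 bases before that of Cxcl14, against 2.98% of all windows. Cxcl9 and Cxcl12 matched neither. Other forms of these sites were not searched. The Cxcl10 window holds gggaaattcc and gggacttccc, which differ in part from the NF-kB letters used and were left in lower case. A match describes the letters and is not evidence of binding, and the lack of a match does not show that a site is absent.

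GEO's labels and the study's own cell numbers disagree for 2 libraries. The library labelled d3 post-polytrauma has 2001 barcodes and the library labelled d5 post-fracture has 6915. The first holds fewer barcodes than the cells which the study's source data list for its labelled condition. Here the first is taken as d5 post-fracture and the second as d3 post-polytrauma, following the cell numbers. Since several directions turn with this assignment, ratios of members and counts of gene lists under the deposited labels are given with the comparisons concerned. Levels of single libraries keep the assignment used here.

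Levels are the UMIs of a gene per 1000000 UMIs of the cells used in a library (CPM), with exact Poisson 95% intervals. A UMI marks 1 captured transcript end, so levels were not divided by gene length. Every condition is a single library, so no difference has a replicate check and no p-value can be given. Intervals cover counting error only, and a gene was called when its CPM differed at least 2-fold between 2 libraries. In total 29678 of 34439 barcodes were used, 1466 to 11915 per library. Median depth was 3642 UMIs per cell at d0 and 15769 to 34949 in the injured libraries, so shares of cells were compared after thinning each cell to 2000 UMIs.

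Some barcodes occurred in more than 1 library, and a cell not clearly deeper in 1 of them cannot be tied to it. Of the 944 barcodes shared by the d5 libraries, 888 held at least 10 times as many UMIs in the d5 post-fracture library, with medians of 42228 and 870 UMIs in the d5 post-fracture and d5 post-polytrauma libraries. Shared barcodes made up 868 of the 1466 d5 post-fracture cells used (59.2%), against 1.99% to 4.06% shared cells in the other libraries. Of those 868 cells, 11 were not at least 10 times deeper in the d5 post-fracture library. At d5 post-polytrauma 338 of 342 shared cells were not at least 10 times deeper in their library. The d0 and both d3 libraries shared 405 to 525 barcodes pairwise and at most 3 with a d5 library. The barcodes thus fall into separate sets for d0 with d3 and for d5, and a difference between d5 and the earlier days cannot be told apart from one between the barcode sets.

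The cells used had the markers of mesenchymal cells. Prrx1, whose promoter drives the Cre, lay between 124 and 275 CPM, and the summed level of 5 FAP/MP markers (FAP/MP, fibro-adipogenic and mesenchymal progenitors) between 646 and 1995 CPM. Summed levels reached 17.6 CPM for 8 hematopoietic markers, 3.33 CPM for 4 neutrophil markers and 3.74 CPM for 5 myogenic markers. Endothelial markers reached 48.7 CPM, of which 37.1 CPM was Tek at d0, and nerve sheath markers 12.5 CPM. The hematopoietic gene Ptprc did not exceed 0.154 CPM, and no library held over 100 of the cells with 3 or more Tyrobp UMIs that were left out. Tyrobp is among the 8 hematopoietic markers, so their low levels were partly set by leaving those cells out.

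The 8 chemokines together took 3928 CPM at d0, 5775 at d3 post-fracture, 2050 at d5 post-fracture, 6165 at d3 post-polytrauma and 2089 at d5 post-polytrauma. Both d3 libraries were thus the highest and both d5 libraries the lowest. In such sums, fewer cells of a type and less RNA per cell cannot be told apart. The ELR genes made up 79.3% of these UMIs at d0, 91.0% and 86.9% at d3 after fracture and polytrauma, and 56.9% and 72.1% at d5. In thinned cells, UMIs of at least 4 of the 8 genes were found in 4.97% of cells at d0, in 18.9% and 29.9% at d3 after fracture and polytrauma and in 7.03% and 6.57% at d5.

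**Figure D1:**
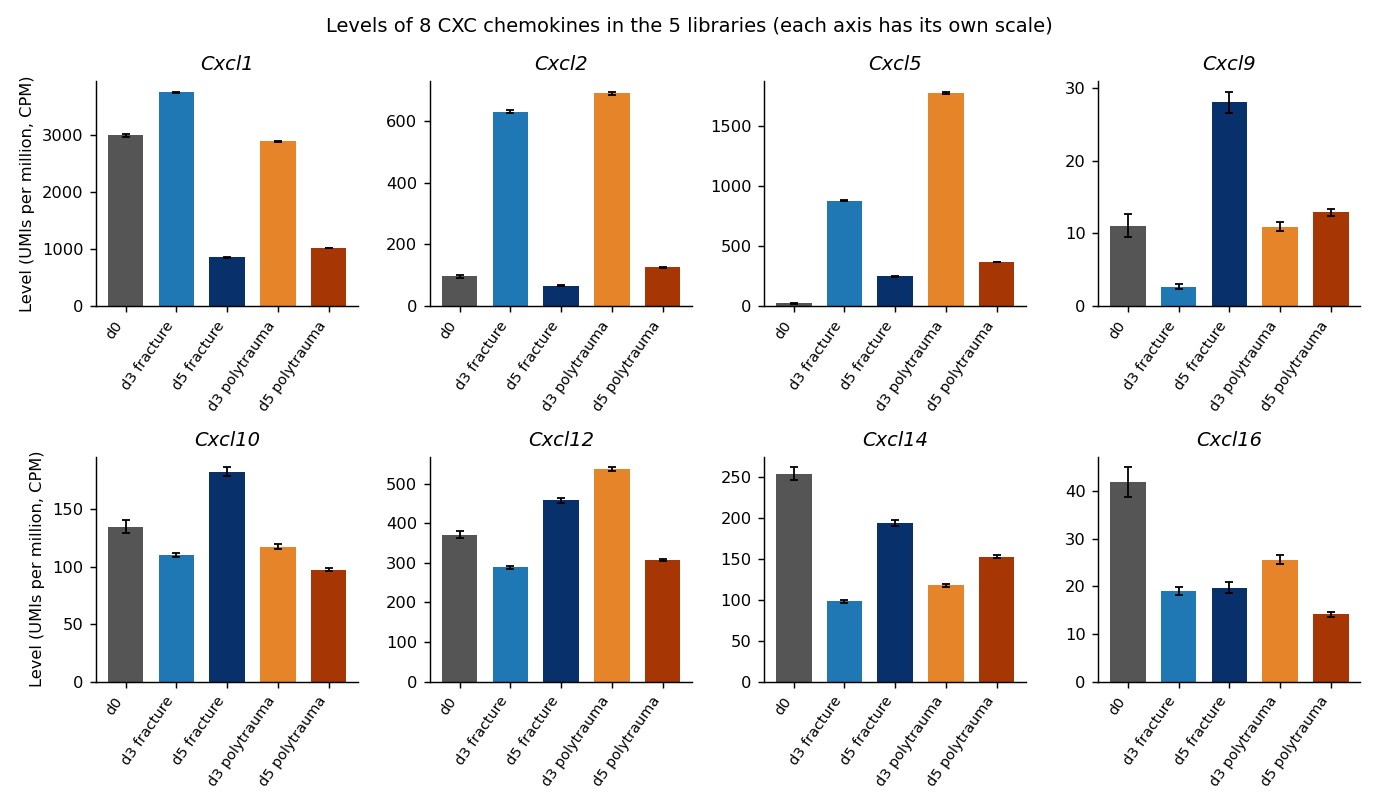
Level of each chemokine (y axis, CPM, one scale per gene, from 0) in the 5 libraries (x axis); bars are the level of 1 library of 2 pooled mice and whiskers the exact Poisson 95% interval, which covers counting error only. Cxcl2 and Cxcl5 stand highest at d3, Cxcl1 lowest at d5, and Cxcl14 and Cxcl16 highest at d0.

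The ELR chemokines were higher at d3 than at d5 in both injuries. Cxcl1 was already abundant in the d0 cells, at 3000.3 CPM. Those cells were freed from uninjured muscle by enzymatic digestion, whose part in this level was not tested. After injury Cxcl1 was at 3751 CPM at d3 post-fracture, 855 at d5 post-fracture, 2889 at d3 post-polytrauma and 1014 at d5 post-polytrauma. It ranked as the 36th gene of all at d0 and the 180th at d5 post-fracture, and UMIs of it were found in 74.1%, 87.4%, 43.9%, 80.2% and 54.7% of thinned cells in the same order. Of 87 Tyrobp-positive d3 post-polytrauma cells, a hematopoietic type that was left out, 33.3% held a Cxcl1 UMI (23.6% to 44.3%), as did 11 of 19 such cells at d3 post-fracture. The level of Cxcl1 was lower at d5 than at d0 and d3 in both injuries. At d0, 454 of 4627 cells held as many of its UMIs as all other cells together.

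Cxcl2 was far lower at d0, at 95.5 CPM, and reached 629 at d3 post-fracture and 689 at d3 post-polytrauma. By d5 it was at 65.2 CPM post-fracture and 125 CPM post-polytrauma. The share of thinned cells with a Cxcl2 UMI was 5.46% at d0, 32.1% and 35.1% at d3, and 4.32% and 8.95% at d5 after fracture and polytrauma. Of the 87 Tyrobp-positive d3 post-polytrauma cells, 44.8% held a Cxcl2 UMI (34.1% to 55.9%), and so did 7 of 19 such cells at d3 post-fracture and 11 of 21 at d5 post-polytrauma. The shares of Cxcl2 in the cells used of these 3 libraries lay below those and were not read as expression per cell. Its UMIs were concentrated, since 386 of the 6101 d3 post-polytrauma cells held as many of them as all other cells together.

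Cxcl5 was nearly silent in the cells of uninjured muscle. It stood at 19.8 CPM (95% interval 17.8 to 22.0) at d0, 877 at d3 post-fracture, 247 at d5 post-fracture, 1778 at d3 post-polytrauma and 366 at d5 post-polytrauma. The share of thinned cells with a UMI went from 1.21% at d0 to 50.9% at d3 post-fracture and 70.2% at d3 post-polytrauma, with 17.7% and 24.2% at d5. At d0, 5 of 4627 cells held as many of its 345 UMIs as all other cells together, compared with 897 of 6101 cells at d3 post-polytrauma. Of the 87 Tyrobp-positive d3 post-polytrauma cells, 26.4% held a Cxcl5 UMI (17.6% to 37.0%), below the 70.2% of the cells used.

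The interferon-linked pair behaved differently. Cxcl9 was scarce throughout, at 11.0 CPM at d0, 2.64 at d3 post-fracture, 28.1 at d5 post-fracture, 10.9 at d3 post-polytrauma and 12.9 at d5 post-polytrauma, and was found in 0.355% to 2.72% of thinned cells. None of the 87 Tyrobp-positive d3 post-polytrauma cells held a Cxcl9 UMI (upper 95% limit 4.15%). The d3 post-fracture library held 263 Cxcl9 UMIs in all, and 11 of its 5569 cells held as many of them as all other cells together. The same held for 11 of 1466 cells at d5 post-fracture, 32 of 6101 at d3 post-polytrauma and 63 of 11915 at d5 post-polytrauma. The counting intervals of Cxcl9 ratios do not cover this concentration in few cells. Cxcl10 moved within a narrow range, at 135, 110, 183, 117 and 97.5 CPM in the same order of libraries. Its share of thinned cells was 11.3%, 14.8%, 10.9%, 13.0% and 8.90% in that order. Of Tyrobp-positive cells, 5.75% of 87 at d3 post-polytrauma and 3 of 21 (14.3%) at d5 post-polytrauma held a Cxcl10 UMI. The latter lay above the share of the cells used, which was not read as expression per cell. At d5 post-fracture 37 of 1466 cells held as many Cxcl10 UMIs as all other cells together, against 320 of 5569 at d3 post-fracture.

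Cxcl12 was at 372 CPM at d0, 289 at d3 post-fracture, 458 at d5 post-fracture, 537 at d3 post-polytrauma and 307 at d5 post-polytrauma. It was found in 56.0% of thinned d3 post-polytrauma cells and in 39.5% to 42.4% of those of the other libraries. The highest library was thus 1 of the injured ones and the lowest another. As a level of background, 19.5% of 87 Tyrobp-positive d3 post-polytrauma cells, which as hematopoietic cells should lack Cxcl12, held a UMI of it after the same thinning (95% interval 11.8% to 29.4%). Those cells had a median of 4028.5 UMIs before thinning, against 15810 for the cells used.

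Cxcl14 was highest at d0, at 254 CPM, against 97.8 at d3 post-fracture, 194 at d5 post-fracture, 118 at d3 post-polytrauma and 152 at d5 post-polytrauma. A UMI was found in 20.4% of thinned d0 cells and in 12.9% to 15.9% of the injured libraries, against 2.30% of the Tyrobp-positive d3 post-polytrauma cells. Cxcl16 was also highest at d0, at 41.8 CPM, with 19.0, 19.7, 25.6 and 14.1 CPM at d3 and d5 post-fracture and d3 and d5 post-polytrauma. Its share of thinned cells was 2.97% to 8.06%, while 17.2% of the Tyrobp-positive cells held a UMI. As the share of Cxcl16 lay below that of the Tyrobp-positive cells, it was not read as expression per cell.

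Before thinning, the share of cells with a UMI could be higher where the level was lower. Cxcl16 was found in 12.7% of d0 cells and in 39.9% of d5 post-fracture cells, which had the highest median depth and a lower CPM.

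The first comparison asked how the chemokines of muscle mesenchymal cells changed by 3 days after fracture. Against d0, Cxcl5 was 44.3-fold higher (95% interval 39.9 to 49.4) and Cxcl2 6.59-fold higher (6.28 to 6.92), while Cxcl1 differed by 1.25-fold. Cxcl9 was 4.16-fold lower, Cxcl14 2.60-fold lower and Cxcl16 2.20-fold lower. Of the 8 members, 2 were thus called higher and 3 lower, beside 11.8% higher and 30.0% lower of the 9923 genes tested (at least 5 CPM in either library). The median log2 ratio was -0.33 over the members and -0.37 over all genes tested.

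All genes shifted together in some comparisons. The median log2 ratio of genes with at least 5 CPM in both libraries was -0.20 for d3 post-fracture against d0, 0.40 for d5 against d3 post-fracture and 0.37 for d5 against d3 post-polytrauma, and -0.03 and -0.00 for polytrauma against fracture at d3 and d5. Relative to these medians, the higher share of all calls went from 28.3% to 38.1% in the first comparison, from 89.6% to 65.8% in the second and from 88.7% to 69.8% in the third. Relative to its median, d3 post-fracture against d0 gave log2 values of 5.67 for Cxcl5 and 2.92 for Cxcl2, and Cxcl16, at -0.94, was no longer past 2-fold.

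The d0 library was the shallowest, and the direction of 1 member turned with depth. Among cells with at least 5000 UMIs, Cxcl12 was higher at d3 post-fracture than at d0 (log2 ratio 0.21), against -0.36 over all cells used. In the same cells, the log2 ratio of Cxcl5 rose from 5.47 to 6.49. In thinned cells, that of Cxcl9 was -1.39 in place of -2.06.

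**Figure D2:**
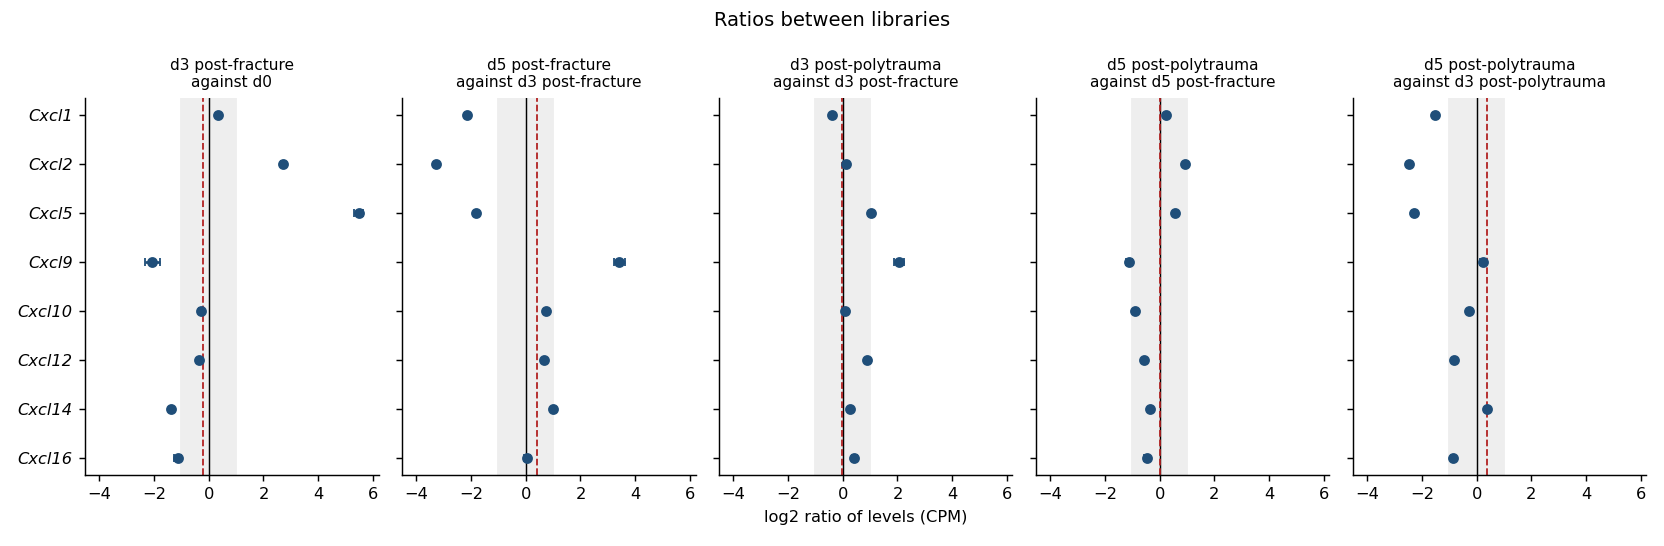
log2 ratio of levels (x axis) for each chemokine (y axis) in the 5 comparisons, with exact 95% intervals of counting error as whiskers; grey marks ratios under 2-fold, and the dashed line is the median ratio of all genes with at least 5 CPM in both libraries. Cxcl5 lies at 5.47 for d3 post-fracture against d0, and Cxcl1, Cxcl2 and Cxcl5 lie left of the grey band from d3 to d5 in both injuries.

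Between d3 and d5 post-fracture the ELR genes went down together. Cxcl2 was 9.66-fold lower at d5 (9.33 to 10.0), Cxcl1 4.39-fold lower and Cxcl5 3.55-fold lower. Only 4.19% of the 9950 genes tested were called lower. Cxcl9 was 10.7-fold higher (9.33 to 12.2), in a comparison in which 36.0% of genes were called higher, and its log2 ratio went from 3.41 to 2.41 in thinned cells. Cxcl14 (1.98-fold), Cxcl10 (1.66-fold) and Cxcl12 (1.59-fold) were higher by less than 2-fold, and Cxcl16 changed sign relative to the median of all genes, from a log2 ratio of 0.05 to -0.35. The share of thinned cells with a UMI did not rise for Cxcl14 (14.4% at d3, 12.9% at d5) or Cxcl10 (14.8% and 10.9%). At d5 post-fracture 32 of 1466 cells held as many Cxcl14 UMIs as all other cells together, and 37 of 1466 did for Cxcl10.

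Leaving out every barcode shared between libraries took away most of the d5 post-fracture cells and moved the log2 ratio of Cxcl2 from -3.27 to -4.20 and that of Cxcl16 to -0.06. Keeping the shared barcodes that were at least 10 times deeper in their library left Cxcl2 at -3.32. If the deposited labels are taken, d5 against d3 post-fracture gives log2 ratios of -0.38 for Cxcl1, 0.13 for Cxcl2 and 1.02 for Cxcl5, so that no ELR gene is called lower.

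From d3 to d5 post-polytrauma the same genes were called lower. Cxcl2 was 5.53-fold lower (5.45 to 5.61), Cxcl5 4.85-fold lower and Cxcl1 2.85-fold lower, beside 3.40% of 9505 genes called lower. No member was called higher, against 26.7% of genes. Relative to the median of all genes, Cxcl12 (log2 ratio -1.18) and Cxcl16 (-1.23) also passed 2-fold, giving 5 members lower, and Cxcl9 went from 0.24 to -0.14 and Cxcl14 from 0.37 to -0.00. Under the deposited labels, Cxcl1, Cxcl2 and Cxcl5 were higher at d5 than at d3 post-polytrauma, at log2 ratios of 0.25, 0.94 and 0.57, and Cxcl9 was lower, at -1.12.

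Immediate early genes, which are induced within minutes by stress and by tissue dissociation, moved with the day in the opposite direction to Cxcl2 and Cxcl5. Of 10 such genes, all were at least 2-fold lower at d3 post-fracture than at d0, beside 30.0% of all genes. From d3 to d5, 9 were at least 2-fold higher post-fracture and 8 post-polytrauma, beside 36.0% and 26.7% of all genes. Relative to the median of all genes these counts were 9, 9 and 7. Under the deposited labels, 0 of the 10 genes were at least 2-fold higher from d3 to d5 in either injury. Instead 4 were lower post-fracture and 3 post-polytrauma, beside 1.35% and 7.78% of all genes. Their summed level ran from 2067 to 14240 CPM, and Fos from 392 CPM at d3 post-polytrauma to 4888 CPM at d0. Their part in the chemokine levels was not tested.

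The polytrauma comparison at d3 asked whether muscle injury changed the chemokines of the same cells. Cxcl5 was 2.03-fold higher after polytrauma than after fracture (2.01 to 2.04) and Cxcl9 4.15-fold higher (3.63 to 4.77). These were 2 members called higher beside 1.76% of 8455 genes, and none was called lower beside 1.35%. The Cxcl9 interval does not cover the concentration of its UMIs in few cells. Cxcl12 was 1.86-fold higher, a ratio above that of 97.7% of the genes tested. Cxcl1 was 1.30-fold lower, and Cxcl2, Cxcl10, Cxcl14 and Cxcl16 differed by 1.06-fold to 1.35-fold, with Cxcl14 turning lower in thinned cells (log2 ratio -0.20). The related Cxcl3 was at 48.1 CPM after fracture and 122 CPM after polytrauma. Under the deposited labels, d3 post-polytrauma against d3 post-fracture gave -2.13 for Cxcl1, -3.27 for Cxcl2 and -1.83 for Cxcl5. With those labels Cxcl3 was at 1.99 CPM after polytrauma.

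At d5 fewer members were called between the injuries than at d3. Cxcl9 was 2.17-fold lower after polytrauma (2.04 to 2.32), the only member called lower, beside 7.78% of 9993 genes. None was called higher beside 1.42%. Cxcl2 was 1.91-fold higher and Cxcl5 1.48-fold higher after polytrauma, and Cxcl10 was 1.87-fold lower. The Cxcl9 call was lost in thinned cells (log2 ratio -0.42) and without the shared barcodes (-0.71), where Cxcl2 was called higher instead, at 1.11 and 1.85. Interferon-stimulated genes were lower alongside, 7 of 10 by at least 2-fold, with Ifit1 at 55.2 CPM after fracture and 11.5 after polytrauma. Under the deposited labels this comparison gave log2 ratios of 0.24 for Cxcl9, -1.51 for Cxcl1, -2.47 for Cxcl2 and -2.28 for Cxcl5, so the ELR genes turned from higher to lower after polytrauma. Of 8 interferon-stimulated genes tested under those labels, 1 was called higher and 1 lower, beside 26.7% and 3.40% of all genes.

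Related genes were read beside the members. The receptor list was nearly empty, with Cxcr4 at most at 2.12 CPM, Cxcr2 at most at 0.918 CPM and Cxcr3 at most at 0.00495 CPM. The scavenger receptor Ackr3, which takes up Cxcl12, was the exception, at 296 CPM at d0, 27.8 and 61.0 at d3 and d5 post-fracture, and 27.7 and 18.7 at d3 and d5 post-polytrauma. Ackr1 was at 18.3 CPM at d0 and at most at 4.23 CPM after injury. Thus 2 of 2 receptors with at least 5 CPM were called lower at d3 post-fracture than at d0, beside 30.0% of all genes.

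Among proteases that cut CXC chemokines, Dpp4, which truncates Cxcl12, was at 33.3 CPM at d0, 0.702 at d3 post-fracture, 12.2 at d5 post-fracture, 0.925 at d3 post-polytrauma and 0.406 at d5 post-polytrauma. At d3 post-fracture 2 of the 5 proteases tested were called lower than at d0 and none higher, and 4 of 5 were called higher at d5 than at d3 post-fracture. These counts stand beside 30.0% of all genes called lower and 36.0% called higher, and relative to the median of all genes they became 1 lower with 1 higher and 2 of 5 higher. With the deposited labels, 0 of 5 proteases were called higher at d5 than at d3 post-fracture, beside 1.76% of all genes. Mmp14 was at 69.0 CPM at d0 and 525 CPM at d5 post-fracture. Of 10 NF-kB targets, 3 were called higher and 4 lower at d3 post-fracture against d0, beside 11.8% and 30.0% of all genes. Among those called higher, Ccl2 was at 1027 CPM at d0 and 2563 CPM at d3 post-fracture. Among those called lower, Il6 was at 479 and 138 CPM.

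Interferon-stimulated genes were called in the direction of Cxcl9 in several comparisons. At d3 post-fracture 8 of the 9 tested were called lower than at d0, beside 30.0% of all genes. At d5 post-fracture all 10 were called higher than at d3, beside 36.0%. At d3, 4 of 7 were called higher after polytrauma than after fracture, beside 1.76%. From d3 to d5 post-polytrauma 1 of 8 was called higher and 1 lower, beside 26.7% and 3.40%, while Cxcl9 was not called. Relative to the median of all genes, 2 of those 8 were lower. Under the deposited labels, 4 of 7 were called higher at d5 than at d3 post-fracture, beside 1.76% of all genes. At d3 all 10 were then called higher after polytrauma than after fracture, beside 36.0%. From d3 to d5 post-polytrauma 7 of 10 were called lower with those labels, beside 7.78%. Of the 8 stromal niche genes tested, 6 were called lower at d3 post-fracture than at d0, again beside 30.0% of all genes. Kitl was among them, at 8.82 CPM against 55.7 CPM at d0. Of the other CXC ligands, Cxcl3 and Cxcl13 were tested at d3 post-fracture against d0. Both were called higher, beside 11.8% of all genes, while Cxcl15 had at most 0.0193 CPM. Cxcl13 was near the limit of 5 CPM, at 5.18 CPM against 2.01 CPM (35 UMIs) at d0. Relative to the median of all genes, the other counts of interferon-stimulated genes and that of stromal niche genes given here were the same. Each of these comparisons sets single libraries side by side.

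Levels of Cxcl1, Cxcl5, Cxcl12 and Cxcl14 were then read in cells that held UMIs of at least 2 genes of a marker list after thinning. Such a set is a range of marker UMIs and not a cell type, and the share of cells in it differed by library. Dpp4, whose level fell to 0.702 CPM at d3 post-fracture, is 1 of the 5 FAP/MP markers. From d0 to d3 post-fracture Cd34 fell from 689 to 47.3 CPM, Pdgfra from 158 to 46.7 and Ly6a from 980 to 427. Prrx1 was at 134 and 124 CPM. The FAP/MP sets of different libraries are thus unlike parts of their cells. Cxcl12 was kept out of that list. The FAP/MP set held 2185 cells (56.3%) at d0, 1066 of 5345 at d3 post-fracture, 466 at d5 post-fracture, 1955 at d3 post-polytrauma and 2853 at d5 post-polytrauma. The tenocyte set held 251 to 1457 cells and the set of pericyte or smooth muscle markers 46 to 729. The fibroblast set took nearly every cell, up to 5310 of 5345 at d3 post-fracture, and separates nothing.

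Cxcl12 was higher in FAP/MP cells than in tenocyte cells in every library. At d0 the levels were 488 CPM (467 to 509) and 72.9 CPM (55.9 to 93.5). After fracture they were 582 and 202 CPM at d3 and 667 and 266 CPM at d5. After polytrauma they were 768 and 305 CPM at d3 and 422 and 264 CPM at d5. The order of these sets was the same in every library when UMIs of at least 3 marker genes were required, with FAP/MP cells at 531 and tenocyte cells at 46.8 CPM at d0. Within the FAP/MP set, Cxcl12 was thus higher at d3 post-fracture than at d0, unlike over all cells. The set took in a smaller share of cells at d3 post-fracture, where its markers were lower. These levels therefore compare unlike parts of the libraries and not a change within the same cells.

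Cxcl14 was higher in the FAP/MP set than in the pericyte or smooth muscle sets of at least 50 cells. In the FAP/MP set it was at 291 CPM at d0, 266 at d3 post-fracture, 517 at d5 post-fracture, 125 at d3 post-polytrauma and 227 at d5 post-polytrauma. All thinned cells together had 266, 139, 211, 120 and 147 CPM in the same order, so the FAP/MP set was little higher at d0 and d3 post-polytrauma. Over all cells used it had been 2.60-fold lower at d3 post-fracture than at d0. In this set the intervals at d0 (275 to 307) and d3 post-fracture (245 to 289) overlap. As for Cxcl12, the set took in a smaller share of cells at d3 post-fracture, so unlike parts of the libraries are compared. With at least 3 marker genes Cxcl14 was at 231 CPM at d0 and 391 CPM at d3 post-fracture, with intervals that do not overlap (210 to 253 and 328 to 464). Over all cells used, 194 of 4627 d0 cells and 290 of 5569 d3 post-fracture cells held as many Cxcl14 UMIs as all others together. The intervals do not cover this concentration, so their overlap or lack of it decides no difference between conditions. In the pericyte or smooth muscle sets of at least 50 cells it was between 26.1 and 84.4 CPM.

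Cxcl5 was higher at d3 post-fracture than at d0 in the FAP/MP, tenocyte and pericyte or smooth muscle sets. In FAP/MP cells it was at 14.4 CPM at d0, 756 at d3 post-fracture, 203 at d5 post-fracture, 1943 at d3 post-polytrauma and 378 at d5 post-polytrauma. Tenocyte cells were lower, at 252 CPM at d3 post-fracture and 568 CPM at d3 post-polytrauma, and pericyte or smooth muscle cells were at 131 and 441 CPM, where the d3 post-polytrauma intervals of tenocyte cells (504 to 638) and of these cells (322 to 590) overlap. With at least 3 marker genes, Cxcl5 in tenocyte cells was at 101 CPM at d3 post-fracture and 76.3 CPM at d5 post-polytrauma, against 252 and 151 CPM with 2. Cxcl1 did not follow this order, with 4267 CPM in 103 pericyte or smooth muscle cells at d3 post-fracture, 3926 in FAP/MP cells and 2168 in tenocyte cells. Dividing cells, 690 at d3 post-fracture, had 749 CPM of Cxcl5, and the 54 chondrocyte-marker cells 306 CPM.

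**Figure D3:**
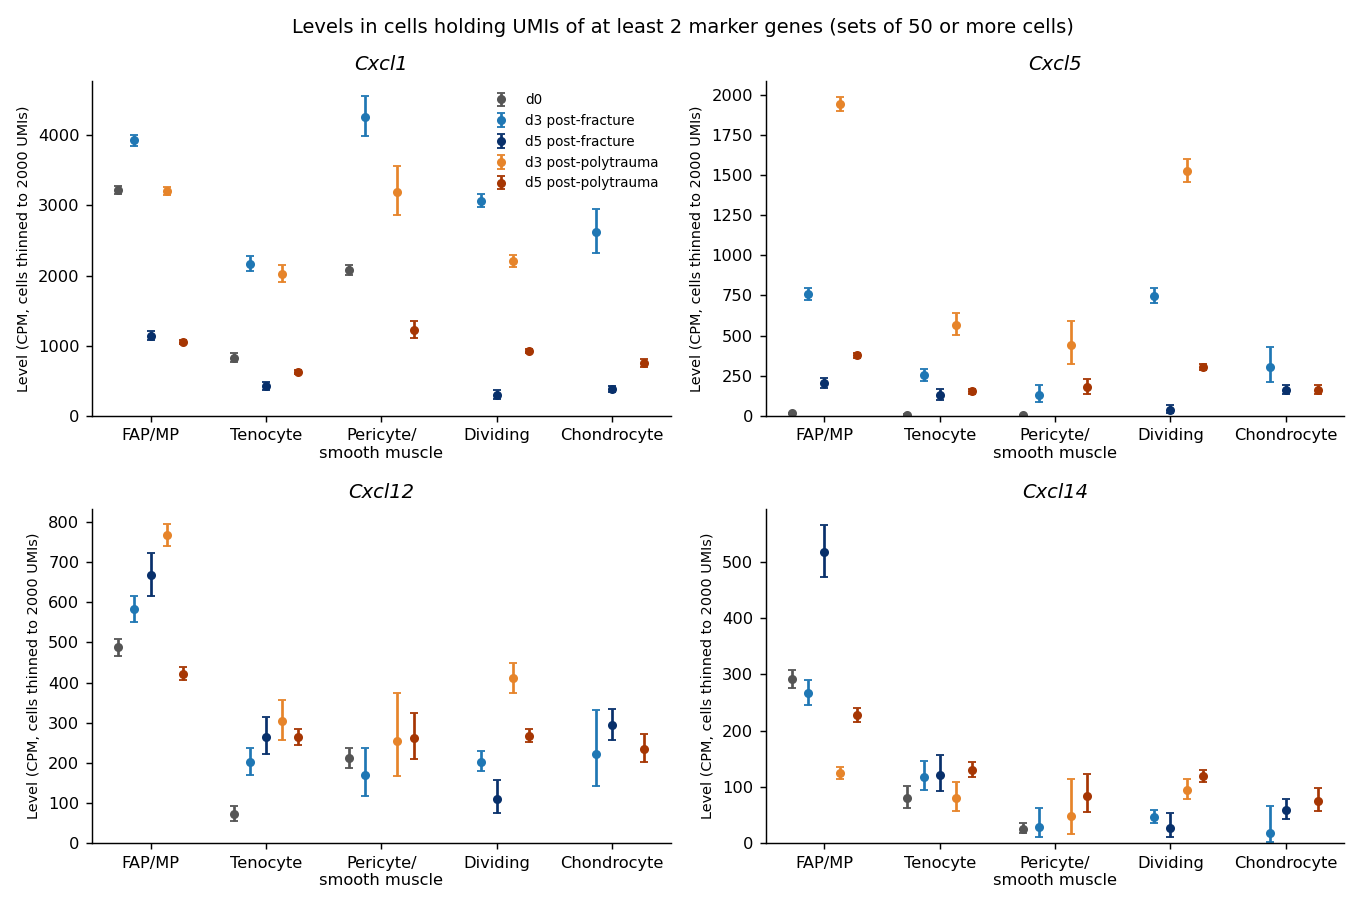
Level in cells thinned to 2000 UMIs (y axis, CPM) of Cxcl1, Cxcl5, Cxcl12 and Cxcl14 in cells with UMIs of at least 2 genes of each marker list (x axis), by library (colour); points are 1 library, whiskers are exact Poisson 95% intervals, and sets under 50 cells are left out. Cxcl12 in FAP/MP cells lies between 422 and 768 CPM, above tenocyte cells in every library, and Cxcl5 at d3 post-polytrauma reaches 1943 CPM in FAP/MP cells.

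The chemokines were also compared by what else their cells held. Cells with at least 2 UMIs of a chemokine were set against cells with 0, both thinned to 2000 UMIs, and the 8 genes with the highest and lowest ratios are described. These are descriptions within a library, without a test, and a gene with few UMIs can lead such a list. The share of all genes past 2-fold was not computed for these splits. Counts of list genes in them therefore have no background beside them.

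Cells with Cxcl1 held more RNA of other cytokine genes. Il6 was higher in them in every library, by 3.13-fold at d0, 4.88-fold and 5.51-fold at d3 after fracture and polytrauma, and 4.33-fold and 3.66-fold at d5. The chemokine Ccl7 followed, between 2.81-fold and 4.54-fold, and Ccl2 reached 6.86-fold at d5 post-fracture. Of 10 NF-kB targets, 5 to 8 were at least 2-fold higher in cells with Cxcl1 in each library, while none of the 10 immediate early genes was in any library. In cells with Cxcl14, however, 9 of the 10 immediate early genes were at d3 post-fracture, 1 at d3 post-polytrauma and 0 in each other library. In cells with Cxcl12 it was 1 at d3 post-fracture and 0 elsewhere.

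Matrix genes found in tendon were lower in cells with Cxcl1, among them Fmod, 8.26-fold at d0, and Chad, 13.0-fold at d0 and 16.4-fold at d3 post-fracture. At d5 the cartilage collagen Col2a1 was 6.49-fold lower after fracture and 6.94-fold lower after polytrauma. At d0 the hemoglobin genes led the list. Hba-a2 had 261 UMIs (57.0 CPM) in 2289 cells with Cxcl1 and 2 UMIs in 1007 cells without, and in cells split by Cxcl12 it had 0 UMIs in the 749 cells with Cxcl12 and 264 in the 2245 cells without. The part of hemoglobin RNA in this split was not tested.

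Cells with Cxcl5 held more of the related Cxcl3, at 3.57-fold at d3 post-fracture and 5.75-fold at d3 post-polytrauma. The acute-phase gene Saa3 was higher in them, 2.96-fold and 2.48-fold at d3 and 7.60-fold at d5 post-fracture (29 and 32 UMIs in cells with and without), and the growth factor Ereg 3.12-fold and 8.06-fold at d3 and d5 post-polytrauma. The pericyte gene Rgs5 was 9.61-fold lower at d3 post-fracture and 24.7-fold lower at d3 post-polytrauma. At d0 only 23 cells held 2 or more Cxcl5 UMIs, too few for this comparison. NF-kB targets were less distinct than for Cxcl1: 0 of 10 were at least 2-fold higher in either d3 library, and 4 and 5 of 10 at d5 after fracture and polytrauma.

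Cxcl12 marked cells with less RNA of tendon genes at d0 and of the cartilage gene Col2a1 at d5. At d0 Kera, a proteoglycan of tendon, was 70.4-fold lower in cells with Cxcl12, and Fmod 27.6-fold lower. At d5 Col2a1 was 40.5-fold lower after fracture and 47.0-fold lower after polytrauma. Saa3 was higher in cells with Cxcl12 in all injured libraries, by 7.48-fold and 12.3-fold at d3 and d5 post-fracture and 6.71-fold and 13.3-fold at d3 and d5 post-polytrauma. The complement gene C3 was 5.06-fold to 5.72-fold higher in the injured libraries except d5 post-fracture, where it was not among the 8 genes. Of 10 interferon-stimulated genes, 7 were at least 2-fold higher with Cxcl12 at d3 and at d5 post-fracture, 3 at d3 post-polytrauma, 2 at d5 post-polytrauma and 1 at d0, where another 1 was lower. At d5 post-fracture 8 of these genes were also at least 2-fold higher with Cxcl1 (424 cells) and 10 with Cxcl14 (93 cells). This was not so elsewhere. With Cxcl1, 0 were higher and 4 lower at d3 post-fracture, and 0 to 2 were higher in the other libraries. With Cxcl14, 0 to 2 were higher in the other libraries, and with Cxcl5, 0 were higher and 6 lower at d3 post-fracture. Over all cells used of the d5 post-fracture library Usp18 was at 6.66 CPM, Rsad2 at 10.7 and Irf7 at 13.6. Ratios of such genes in 93 thinned cells can rest on a few UMIs.

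Cells with Cxcl14 at d0 held Hsd11b1, which activates glucocorticoids, at 719 CPM against 66.2 CPM in cells without. Dlk1, an inhibitor of fat cell formation, was 19.0-fold higher and Saa1 19.0-fold higher. The contractile genes Tagln (40.1-fold) and Myh11 (37.4-fold) were lower. After injury the matrix protease Mmp3 was higher in cells with Cxcl14 in all 4 libraries, 11.8-fold and 10.4-fold at d3 and d5 post-fracture and 3.46-fold and 14.9-fold at d3 and d5 post-polytrauma. Cxcl13, a B-cell chemokine, was at 128 CPM in cells with Cxcl14 and 0.765 CPM in cells without at d3 post-fracture, and at 56.4 and 0.309 CPM when the cells were split by Cxcl12. Only 0.486% of thinned cells of that library held a Cxcl13 UMI, so these levels rest on few cells.

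**Figure D4:**
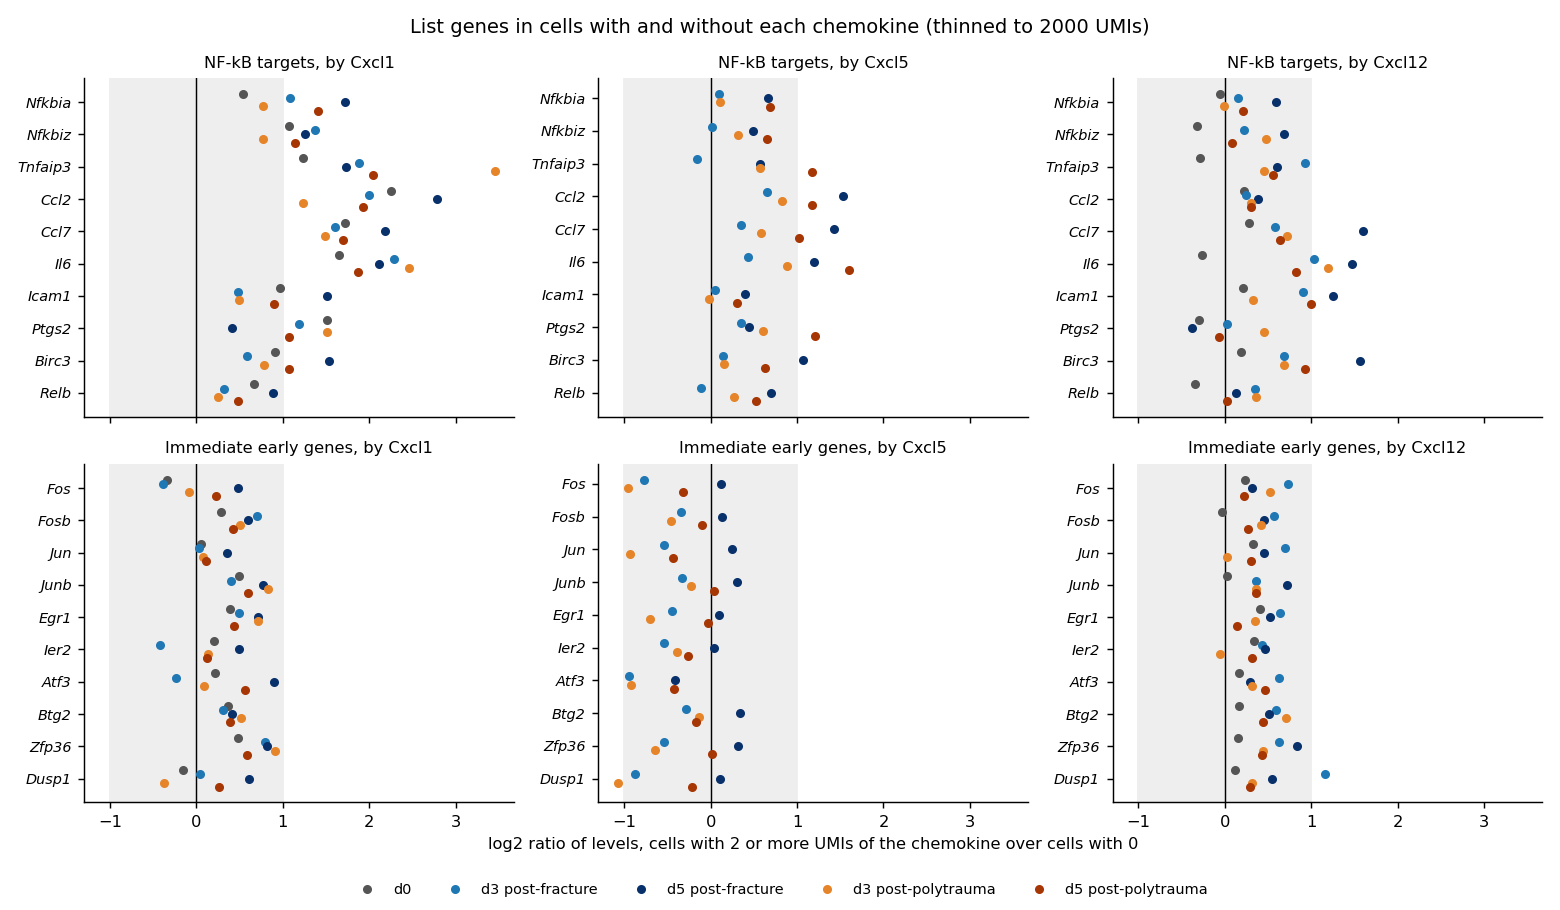
log2 ratio (x axis) of 10 NF-kB targets (top) and 10 immediate early genes (bottom) between cells with 2 or more UMIs of Cxcl1, Cxcl5 or Cxcl12 (columns) and cells with 0, all thinned to 2000 UMIs; each point is a library, named by colour, and grey marks ratios under 2-fold. For Cxcl1, 5 to 8 NF-kB targets per library lie right of the grey band and 0 immediate early genes do; the share of all genes past 2-fold was not computed.

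Pairs of members shared cells to different degrees. Cxcl10 was found in 47.3% of the d0 cells with a Cxcl9 UMI (33.7% to 61.2%, 55 cells) and in 10.8% of the rest. At d3 post-polytrauma these shares were 56.3% and 12.2%, and at d5 post-polytrauma 51.8% and 8.17%. At d5 post-polytrauma 3 of 21 Tyrobp-positive cells (14.3%) held a Cxcl10 UMI, above the 8.90% of the cells used. The pair there was therefore not read as expression per cell. At d0 and d3 post-polytrauma the interferon-linked pair was often found in the same cells, with Cxcl9 itself in at most 2.72% of cells.

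Of the cells with Cxcl2, 91.5% at d0 and 87.5% to 96.4% after injury also held Cxcl1, and the share of cells without Cxcl2 that held Cxcl1 ran from 41.7% to 83.1%. Cxcl5 was found in 60.4% of cells with Cxcl2 and 46.4% of cells without at d3 post-fracture, and in 81.5% and 64.0% at d3 post-polytrauma. Shares of Cxcl2 at d3 after each injury and at d5 post-polytrauma lay below those of Tyrobp-positive cells. Its pairs there were therefore not read as expression per cell. Cells with Cxcl12 held Cxcl14 more often than the rest in every library, at 26.7% against 15.9% at d0 and 21.2% against 6.77% at d5 post-fracture.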

How the data were processed

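The authors aligned the reads of 10x Chromium 3' v2 libraries to mm10 with Cell Ranger and deposited raw UMI counts per gene and barcode, without pooling libraries; the file headers name Cell Ranger 3.1.0. Doublets were not called. From the deposited counts, cells with 350 to 8000 genes, under 20% mitochondrial UMIs and at least 1000 UMIs were used, leaving out 153 cells with 3 or more Tyrobp UMIs. Counts were summed per library and given as CPM. Intervals are exact (Poisson, Clopper-Pearson and conditional binomial, 95%). A count of 0 was set to 3 counts in ratios. Shares, marker sets and co-detection used cells with at least 2000 UMIs thinned to 2000 (28192 cells). The ratio, interval and thinning steps were tested on simulated data. Groups came from the labels, with 2 libraries exchanged as described.

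All 8 members were named. Genes of 7 lists and 11 marker lists could be named with at least 5 CPM in 1 library, and for Cxcl1, Cxcl5, Cxcl12 and Cxcl14 the 8 genes with the highest and lowest co-detection ratios (at least 50 CPM, at least 50 cells). Outside this rule, Cxcr4, Cxcr2, Cxcr3, Cxcl15 and Ptprc were named below 5 CPM to give their low levels. Members and lists were chosen with earlier results of these data known. Python 3.11.15, numpy 2.4.6, scipy 1.17.1 and pandas 2.3.3 were used. In total 10 alternatives were planned, and another was added after seeing the data.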

Additional observations from a re-analysis of the deposited data

Results flagged for a closer look

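The levels of Cxcl10 and Cxcl12 moved in opposite directions between d3 and d5 in the 2 injuries. The log2 ratio of d5 to d3 for Cxcl10 was 0.73 after fracture and -0.27 after polytrauma, and for Cxcl12 it was 0.67 after fracture and -0.81 after polytrauma. The share of thinned cells with a Cxcl10 UMI was lower at d5 in both injuries, from 14.8% to 10.9% after fracture and 13.0% to 8.90% after polytrauma. The share of 8.90% lay below that of Tyrobp-positive cells (14.3%) and was not read as expression per cell. For Cxcl12 the shares were 39.5% and 42.4% after fracture and 56.0% and 42.4% after polytrauma. With 1 library per condition the difference between injuries was not tested. Under the deposited labels the directions were the same, at 0.09 and -0.91 for Cxcl10 and 0.90 and -0.58 for Cxcl12.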

How the results depend on the processing

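No paired analysis was possible because each condition is a single library. The exchange of labels mattered most. Under the deposited labels, 2 members were called higher and 0 lower in d5 against d3 post-fracture, with Cxcl2 at 0.13 and Cxcl5 at 1.02 on the log2 scale. In d3 post-polytrauma against d3 post-fracture 1 was called higher and 3 lower, with Cxcl5 at -1.83. In d5 post-polytrauma against d5 post-fracture 3 were called lower, with Cxcl9 at 0.24, and in d5 against d3 post-polytrauma 1 was called lower, with Cxcl1 at 0.25, Cxcl2 at 0.94 and Cxcl5 at 0.57. With a minimum of 5000 UMIs, 1 member was called lower in d3 post-fracture against d0 and 2 higher in d5 against d3 post-fracture. For d5 post-polytrauma against d5 post-fracture, 1 was called higher and 0 lower both in thinned cells and without shared barcodes, and 1 higher without the cells of highest UMI count. Scaling by the median ratio gave 5 lower in d5 against d3 post-polytrauma. Keeping Tyrobp-positive cells or leaving out cells with any Tyrobp UMI moved no log2 ratio by over 0.03, and the rule on shared barcodes that was added after seeing the data moved none by over 0.05. The cause of these changes was not tested. Of 152 levels in marker sets, 90 moved beyond their counting interval when UMIs of 3 marker genes were required.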
